A study of Mus musculus with 31 samples.

Results

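The ISG15 conjugation system is described here through 6 genes chosen by their symbols. They are the modifier Isg15, its activating enzyme Uba7, its conjugating enzyme Ube2l6, the ligases Herc6 and Trim25, and the protease Usp18. They are 6 of the 55492 rows of a gene count table, and all 6 were among the 22172 rows that had enough counts to be tested. RNA was sequenced from long-term haematopoietic stem cells (LT-HSCs), the marrow cells that sustain blood formation, in 31 mouse libraries.

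All groups were recipients of marrow that carried a JAK2-V617F transgene, the mutation of myeloproliferative neoplasm, mixed with a 10-fold excess of wild-type marrow. VF marrow had the genotype SclCre;FF1;GFP. VFDM marrow had the genotype SclCre;FF1;Dnmt3Δ/Δ;GFP and so also lacked the DNA methyltransferase Dnmt3a. The transgene was switched by a Cre driven from Scl regulatory sequence, which is active in blood stem and progenitor cells. From 4 weeks after transplantation the recipients of each genotype received vehicle, pegylated interferon alpha at 25 µg/kg once a week under the skin (IFN), 5-azacytidine at 2 mg/kg daily into the peritoneum (AZA), or both at these doses (COMBO). 5-azacytidine is a cytidine analogue that traps DNA methyltransferases on DNA. After 8 weeks of treatment, Lin- Sca1+ cKit+ CD48- CD150+ cells were sorted. Each of the 8 groups had 4 libraries, except VFDM COMBO with 3, numbered 2 to 4. The labels do not say that each library came from a separate animal, so p-values measure the spread between libraries, which may be technical. The gate names no GFP, so wild-type cells of the recipients' graft may be in the sort, and Sca1, encoded by Ly6a, is itself induced by interferon.

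Totals ran from 17782394 to 73910928 counts and detected rows from 17087 to 28851, with 8 libraries under 20000 rows (VF AZA 2 and 3, VF COMBO 1 to 3, VFDM AZA 3 and 4, VFDM COMBO 3). The factors that scale a library for its composition (TMM) were 0.926, 0.753, 0.992 and 0.719 in VF vehicle 1 to 4. In all other groups they ran from 0.978 (VFDM COMBO 3) to 1.07 (VF AZA 4). Stem cell markers were present in every group, their summed level over 10 genes running from 1021 to 2658 CPM (read counts scaled to a common library size). Dnmt3a, the check of the genotype labels, ranged from 104 to 297 CPM over the VF groups and from 23.0 to 162 CPM over the VFDM groups, ranges that overlapped. The labels do not give the deleted exons, and reads from the rest of the gene may remain. With vehicle, the Cre transgene row ran from 86.8 to 173 CPM in VF and from 198 to 244 CPM in VFDM libraries. Under AZA it ran from 66.9 to 107 against 186 to 242 CPM. The GFP row ran from 110 to 325 against 355 to 412 CPM with vehicle, and from 197 to 282 against 301 to 441 CPM under AZA. Whether the share of transgenic cells differed was not tested, so genotype comparisons cannot tell it apart from the loss of Dnmt3a. The library labelled VFDM IFN 3 went against its label, with Dnmt3a at 162 CPM where the other 3 VFDM IFN libraries lay between 102 and 111 CPM, and the Cre transgene row at 113 CPM against 212 to 244 CPM. Tests and sums over VFDM IFN libraries are therefore given with and without it, and levels are printed for each library or as a range or mean over all 4.

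ISG15 is a ubiquitin-like protein that cells make in large amounts after type I interferon. It is attached to other proteins by an activating enzyme (E1), a conjugating enzyme (E2) and a ligase (E3), and Usp18 cuts it off again. Interferon activates a transcription factor complex that holds Stat2 and Irf9 and binds interferon-stimulated response elements (ISREs) in the promoters of its target genes. Usp18 also sits at the receptor chain Ifnar2 and dampens further signalling, independently of its protease activity. In blood stem cells interferon alpha is known to drive cycling, and it is used as a treatment of myeloproliferative neoplasm.

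The promoters of the modifier and its E1 are shown because under interferon Uba7 had the smallest fold change of the members in both genotypes and Isg15 one of the 2 largest. The deposited counts were made on mm10, and the windows were taken from RefSeq on GRCm38.p6, in which 5 of the 6 members matched by symbol. Usp18, with the other of the 2 largest fold changes, had no window there. The part of promoter letters in the responses was not tested. Isg15 lies at chr4:156199424-156200818 on the minus strand, and its window is the 250 bases before its start, chr4:156200819-156201068. Capitals mark the letters GAAANNGAAA, the core of an ISRE, searched on both strands, where the 3 matches overlap in 1 run and start 78, 72 and 66 bases before the gene start. Uba7 lies at chr9:107975505-107984060 on the plus strand. Its window held no exact match, so capitals mark 2 overlapping matches with at most 1 mismatch, a looser search chosen after the sequences were seen. They begin 27 and 21 bases before the RefSeq start on the minus strand, within chr9:107975537-107975566, a stretch that lies inside the gene as GENCODE vM21 draws it.
Isg15: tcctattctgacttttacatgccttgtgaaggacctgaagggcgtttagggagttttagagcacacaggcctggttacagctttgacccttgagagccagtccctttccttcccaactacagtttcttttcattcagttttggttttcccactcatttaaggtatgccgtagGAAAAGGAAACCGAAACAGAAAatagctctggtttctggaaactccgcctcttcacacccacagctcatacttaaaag
Uba7: tagTTTCACTTTTGGTTTCctgaaatcata
Of 32851 windows of the same length, 2.98% held an exact match and 0.180% held at least 2. With 1 mismatch allowed 31.4% held a match and 9.75% at least 2. Neither Ube2l6, Herc6 nor Trim25 had an exact match. With 1 mismatch Herc6 and Trim25 each had 1, and Ube2l6 had 0. The Trim25 match begins 10 bases before the RefSeq start and also lies inside the gene as GENCODE vM21 draws it. The windows held 4 CG dinucleotides in Isg15, 1 in Uba7, 11 in Ube2l6, 1 in Herc6 and 12 in Trim25, against a median of 6 over all windows. No match says only that these letters are not in this window.

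Most of the system was higher under interferon in both genotypes, with the largest fold changes in the modifier and its protease. In VF cells 5 of 6 members rose under IFN (edgeR, adjusted p under 0.05 over all 22172 rows), where 2.43% of all rows were called and 1.27% were called higher. In VFDM cells 5 of 6 rose, where 0.965% of rows were called and 0.916% were called higher, and 4 rose without the library labelled VFDM IFN 3. The median log2 fold change of the 6 members was 1.03 in VF and 1.25 in VFDM cells, beside -0.02 and -0.01 over all rows.

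Isg15 stood at 7.81, 3.77, 1.97 and 7.47 CPM in VF vehicle libraries 1 to 4 and at 13.9, 28.2, 28.6 and 26.8 CPM in VF IFN libraries 1 to 4. Every IFN library was above every vehicle library, with library 1 the lowest of the treated. The log2 fold change was 2.23 ± 0.37 (SE), with an adjusted p of 0.000253. In VFDM cells Isg15 stood at 3.22, 2.57, 2.81 and 2.04 CPM with vehicle and at 31.6, 21.8, 24.8 and 28.3 CPM with IFN. These groups were far apart, and the vehicle libraries lay close together. This was a log2 fold change of 3.32 ± 0.39 (adjusted p = 7.92e-07), and 3.35 without the library labelled VFDM IFN 3.

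Uba7, the E1 that activates ISG15, was already well expressed in untreated cells. Its levels were 294, 231, 219 and 292 CPM with vehicle and 456, 336, 383 and 357 CPM with IFN in VF libraries 1 to 4. The groups did not overlap, and the rise was small, with a log2 fold change of 0.57 ± 0.14 (adjusted p = 0.0194). That call was lost without VF vehicle 2 (adjusted p = 0.0568) or without VF IFN 1 (0.0942). In VFDM cells the levels were 297, 232, 280 and 246 CPM with vehicle and 391, 313, 339 and 341 CPM with IFN. The libraries again did not overlap, but the log2 fold change of 0.39 ± 0.14 did not pass the test (adjusted p = 0.344, and 0.518 at 0.40 without the library labelled VFDM IFN 3). It passed with limma (adjusted p = 0.00146) and in edgeR on the compared groups alone (0.03).

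Ube2l6, the E2 that passes ISG15 on to the ligases, varied widely among VF vehicle libraries, at 20.7, 42.0, 25.3 and 68.0 CPM, and stood at 66.6, 72.6, 70.5 and 64.7 CPM in VF IFN libraries. VF vehicle 4 lay among the IFN libraries, and the log2 fold change of 0.82 ± 0.32 did not pass (adjusted p = 0.228). Without VF vehicle 4 it did (adjusted p = 0.0434), as it did with limma (0.00112). In VFDM cells the levels were 30.9, 22.8, 29.1 and 33.1 CPM with vehicle and 66.3, 70.0, 72.2 and 84.7 CPM with IFN. No libraries overlapped, and Ube2l6 rose with a log2 fold change of 1.34 ± 0.32 (adjusted p = 0.0324). That p lay close to the threshold, and leaving out any 1 of VFDM vehicle 1, 2, 3 or 4 or of VFDM IFN 2, 3 or 4 took it to between 0.0703 and 0.186, at 0.0703 for the library labelled VFDM IFN 3.

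Herc6, the main ISG15 ligase of mice, stood at 96.1, 41.8, 68.5 and 48.3 CPM in VF vehicle and at 147, 144, 146 and 169 CPM in VF IFN libraries. In VFDM cells it stood at 79.4, 70.4, 75.4 and 74.5 CPM with vehicle and at 199, 137, 145 and 193 CPM with IFN. In neither genotype did vehicle and IFN libraries overlap. The log2 fold changes were 1.25 ± 0.20 in VF (adjusted p = 0.000127) and 1.17 ± 0.20 in VFDM cells (adjusted p = 0.000409), the latter 1.23 without the library labelled VFDM IFN 3.

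Trim25, which can add either ubiquitin or ISG15 to its substrates, stood at 132, 130, 114 and 152 CPM in VF vehicle and at 203, 184, 195 and 202 CPM in VF IFN libraries. The groups did not overlap, and the log2 fold change was 0.57 ± 0.14 (adjusted p = 0.0233). This call was lost without any 1 of VF vehicle 1 or 3 or VF IFN 1, 3 or 4 (adjusted p between 0.0513 and 0.0666), and leaving out VF IFN 1 left 3 members called in place of 5. In VFDM cells Trim25 stood at 112, 112, 108 and 98.6 CPM with vehicle and at 215, 203, 197 and 166 CPM with IFN. All treated libraries were above all vehicle libraries, with a log2 fold change of 0.86 ± 0.14 (adjusted p = 0.000362), and 0.86 without the library labelled VFDM IFN 3.

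Usp18, the protease that removes ISG15, was low without treatment. It stood at 15.2, 8.45, 8.31 and 14.7 CPM in VF vehicle and at 75.8, 79.6, 79.8 and 82.0 CPM in VF IFN libraries. In VFDM cells it stood at 11.9, 6.69, 8.46 and 7.87 CPM with vehicle and at 82.8, 88.8, 90.0 and 72.4 CPM with IFN. The treated libraries lay close together and far above the untreated ones in both genotypes. The log2 fold changes were 2.78 ± 0.26 in VF (adjusted p = 4.59e-09) and 3.26 ± 0.26 in VFDM cells (adjusted p = 3.08e-10), the latter 3.22 without the library labelled VFDM IFN 3.

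The test of a difference between the genotypes' IFN responses called 0 of 6 members (edgeR), with 1 at an unadjusted p under 0.05, and DESeq2 and limma also called 0. It called 0 of 22172 rows (0%), with 1149 at an unadjusted p under 0.05. For Isg15 the difference of the log2 fold changes was 1.09, with a 95% interval from 0.05 to 2.12, and for Usp18 it was 0.48, from -0.21 to 1.18. Without the library labelled VFDM IFN 3 the count was also 0 (edgeR, 1 at an unadjusted p under 0.05), with differences of 1.12 for Isg15 and 0.45 for Usp18. Ly6a rose by 1.85 and 1.98 on the log2 scale in VF and VFDM cells beside the members, the latter 2.03 without that library. In bulk RNA, fewer cells of a type and less RNA per cell cannot be told apart. Summed platelet markers (5 genes) ran from 627 to 770 CPM in VF IFN against 154 to 335 CPM in VF vehicle libraries, and from 313 to 719 against 85.8 to 178 CPM in VFDM cells (to 692 without the library labelled VFDM IFN 3). Of the 5 platelet markers 1 was called higher in VF and 2 in VFDM cells, or 1 without that library. Summed neutrophil markers (6 genes) ran from 36.4 to 232 CPM in VF IFN against 1.44 to 14.7 CPM in VF vehicle libraries. There 0 of 6 neutrophil genes passed the test (edgeR, lowest adjusted p 0.0737, Camp). In VFDM cells they ran from 63.2 to 447 CPM with IFN (from 84.2 without that library) against 2.40 to 62.5 CPM with vehicle, with 3 of 6 genes higher with or without it. Of the 6 erythroid markers Car1 was higher in VF IFN (log2 fold change 5.79) and Gata1 in VFDM IFN (2.06 with or without that library). Of the 10 stem cell markers Hlf was lower in VFDM IFN (-1.02, and -0.93 without that library). The part of these markers in the members' rise was not tested.

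**Figure D1:**
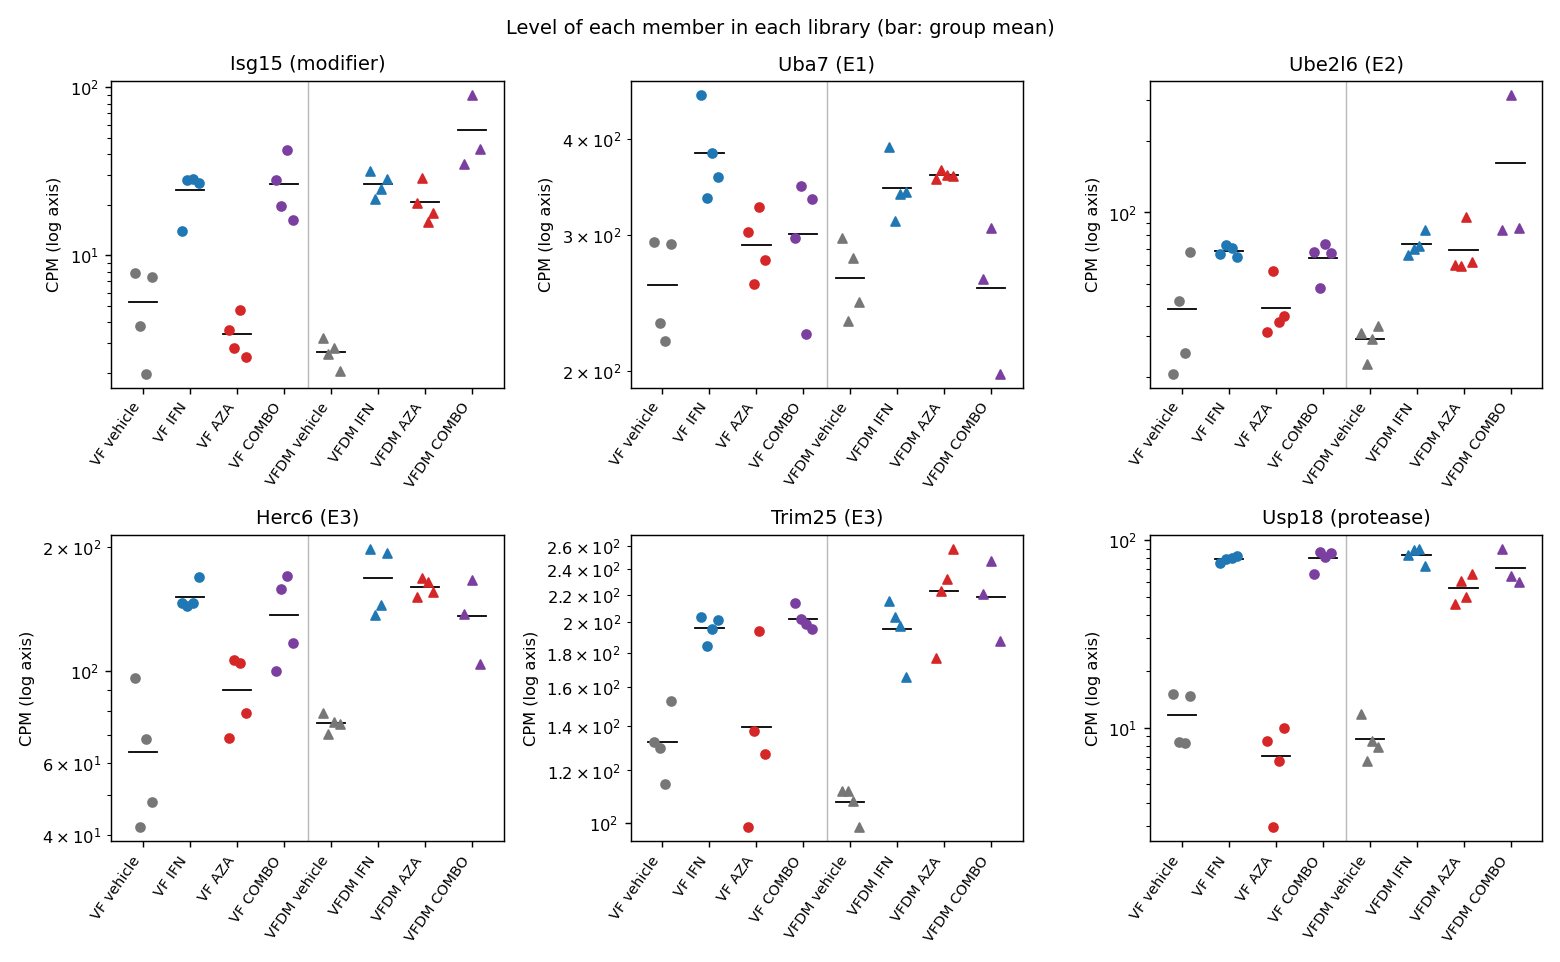
Level of each member in CPM (log axis) in each of the 31 libraries, by genotype (circles VF, triangles VFDM) and treatment (colour), with the mean of each group as a bar. Isg15 and Usp18 sit low in both vehicle groups and in VF AZA, and high in the other 5 groups.

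Under 5-azacytidine alone most members rose in VFDM cells, and none passed the test in VF cells. In VF cells 0 of 6 members passed the test (edgeR), with 2 at an unadjusted p under 0.05, and DESeq2 and limma also called 0. Over all rows 1.20% were called. In VFDM cells 4 of 6 members rose, where 0.925% of rows were called and 0.852% were called higher. The median log2 fold change of the 6 was 0.05 in VF and 1.18 in VFDM cells, beside -0.07 and -0.04 over all rows.

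Isg15 stood at 3.60, 2.81, 4.72 and 2.49 CPM in VF AZA and at 20.6, 28.7, 15.9 and 17.8 CPM in VFDM AZA libraries 1 to 4. The former lay within the range of VF vehicle, and the latter lay above every vehicle library of either genotype. Against vehicle the log2 fold change was -0.60 ± 0.36 in VF (adjusted p = 0.488) and 2.96 ± 0.38 in VFDM cells (adjusted p = 7.48e-06). The AZA responses differed by 3.56 ± 0.52 between genotypes (adjusted p = 0.00021). A direct comparison of VFDM AZA with VF AZA gave 2.60 ± 0.38 (adjusted p = 4.08e-05).

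Usp18 behaved alike, at 8.56, 2.94, 6.66 and 9.98 CPM in VF AZA and 45.8, 60.3, 49.6 and 65.8 CPM in VFDM AZA libraries. The VFDM AZA libraries lay above all vehicle libraries and below all VFDM IFN libraries. Against vehicle the log2 fold change was -0.71 ± 0.25 in VF (adjusted p = 0.153) and 2.67 ± 0.26 in VFDM cells (adjusted p = 2.23e-08). The responses differed by 3.38 ± 0.35 between genotypes (adjusted p = 1.11e-06).

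Uba7 stood at 303, 259, 326 and 279 CPM in VF AZA and at 355, 365, 360 and 358 CPM in VFDM AZA libraries. The 4 VFDM AZA libraries were nearly identical and all lay above VFDM vehicle. The log2 fold change of 0.45 ± 0.14 in VFDM cells did not pass (adjusted p = 0.16), though it did with limma (0.00404) and on the compared groups alone (0.0182), and in VF cells it was 0.17 (adjusted p = 0.649). Ube2l6 stood at 31.1, 56.3, 34.5 and 36.4 CPM in VF AZA and at 60.1, 59.4, 95.4 and 61.9 CPM in VFDM AZA libraries. VFDM AZA 3 stood well above the other 3, and every VFDM AZA library was above every VFDM vehicle library. The log2 fold change in VFDM cells was 1.26 ± 0.32, at an adjusted p of 0.055. It passed without VFDM AZA 1 (0.0487), with DESeq2 (0.0106), with limma (0.000521) and on the compared groups alone (0.00437).

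Herc6 stood at 69.0, 106, 105 and 79.4 CPM in VF AZA and at 151, 169, 165 and 156 CPM in VFDM AZA libraries. Only the VFDM AZA libraries were clear of their vehicle group, with a log2 fold change of 1.10 ± 0.20 (adjusted p = 0.0013) against 0.50 in VF cells (adjusted p = 0.223). Without VF vehicle 1 the VF value passed (adjusted p = 0.0412). Trim25 stood at 98.8, 137, 194 and 127 CPM in VF AZA and at 177, 223, 232 and 258 CPM in VFDM AZA libraries. VF AZA 3 reached into the VFDM AZA range, while the VFDM groups did not overlap. The log2 fold change was 0.08 in VF (adjusted p = 0.889) and 1.05 ± 0.15 in VFDM cells (adjusted p = 2.38e-05).

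The test of the difference between the genotypes' AZA responses called 3 of 6 members higher in VFDM, Isg15, Trim25 and Usp18, where 0.582% of rows were called and 0.564% higher. Trim25 differed by 0.97 ± 0.20 (adjusted p = 0.0114), a call lost without VF vehicle 4 (0.0518), VFDM vehicle 4 (0.0577) or VFDM AZA 4 (0.057). For Herc6 the difference was 0.60, with a 95% interval from 0.03 to 1.16 (adjusted p = 0.439), for Ube2l6 1.24, from 0.31 to 2.16 (0.292), and for Uba7 0.27, from -0.13 to 0.67 (0.688).

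Set side by side under AZA, VFDM libraries were higher than VF libraries in 4 of 6 members, where 0.740% of rows were called and 0.636% higher. These were Isg15, Herc6, Trim25 and Usp18, the last with a log2 difference of 2.97 ± 0.26 (adjusted p = 2.47e-09). Herc6 differed by 0.84 ± 0.20 (adjusted p = 0.0283) and lost the call without VF AZA 1 or 4 or VFDM AZA 2, 3 or 4 (0.0712 to 0.118). Trim25 differed by 0.68 ± 0.14 (adjusted p = 0.0102) and lost it without VF AZA 1 or 4 or VFDM AZA 4 (0.0552 to 0.0769), so that 2 members stayed called without any 1 of VF AZA 1, VF AZA 4 or VFDM AZA 4. With vehicle, 0 of 6 members differed between genotypes (edgeR, 2 at an unadjusted p under 0.05, 0 by DESeq2 and limma), where 0.956% of rows did. Isg15 was the exception without VF vehicle 3 (adjusted p = 0.0407), its log2 difference being -0.96 over all libraries, and VF vehicle 1 and 4 held the highest vehicle levels of Isg15 and Usp18. Under IFN 0 of 6 members differed (edgeR, 0 at an unadjusted p under 0.05, 0 by DESeq2 and limma), where 0.00902% of rows did, and 0 again without the library labelled VFDM IFN 3 (0 at an unadjusted p under 0.05).

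Markers of other cells were compared between VFDM AZA and VFDM vehicle libraries list by list. Summed neutrophil markers ran from 0.152 to 44.9 CPM in VFDM AZA, with Camp at 0 in all 4 libraries, against 2.40 to 62.5 CPM in VFDM vehicle libraries. Monocyte markers (6 genes) summed to between 23.1 and 69.8 against 67.0 to 80.4 CPM. T and NK cell markers (7 genes) summed to between 5.66 and 9.80 against 2.32 to 7.54 CPM, with Cd3e, Cd3g, Cd8a and Ncr1 at 0. Cd3e was also at most 0.0220 CPM in VFDM vehicle libraries. Of the 6 T and NK cell genes tested 0 passed (edgeR), where 0.925% of all rows were called. Their log2 fold changes ran from -3.03 (Cd4) to 1.89 (Trbc2), with Nkg7 at 1.28. Markers of plasmacytoid dendritic cells (5 genes), which produce interferon, summed to between 168 and 202 against 176 to 195 CPM, with Siglech at 0. Of these 5 genes 1 was higher, Bst2 (log2 fold change 1.61, adjusted p = 0.00347), which other cell types also make. Under IFN, Bst2 was at 0.33 in VF cells (adjusted p = 0.838) and at 1.34 in VFDM cells (0.0206). Without the library labelled VFDM IFN 3 the latter was 1.24 (0.0847). B cell markers (5 genes) summed to between 1.55 and 8.74 against 4.31 to 6.37 CPM. Erythroid markers (6 genes) summed to between 56.5 and 207 against 15.7 to 84.2 CPM, with 2 of 6 genes higher, and platelet markers to between 185 and 399 against 85.8 to 178 CPM, with 1 of 5 higher. CD48 multipotent progenitor markers (3 genes) ran from 47.0 to 82.0 against 147 to 299 CPM, with Cd34 lower (log2 fold change -1.63, adjusted p = 0.0299), and the 10 stem cell markers from 1809 to 2203 against 2320 to 2658 CPM. The part of these lists in the members' rise was not tested. Ly6a, of the stem cell list, rose by 1.82 on the log2 scale.

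A comparison of VFDM AZA with VFDM IFN was added after the levels had been seen. It called 0 of 6 members (edgeR, 1 at an unadjusted p under 0.05, 0 by DESeq2 and limma) and 0% of all rows, of which 1053 were at an unadjusted p under 0.05, and 0 members again without the library labelled VFDM IFN 3. The log2 difference of Isg15 was -0.36, with a 95% interval from -1.08 to 0.36, and that of Usp18 was -0.59, from -1.08 to -0.10, and they were -0.39 and -0.55 without that library. For Uba7, Ube2l6, Herc6 and Trim25 the differences lay between -0.08 and 0.19. The comparisons of each drug with vehicle share the vehicle libraries, so their values are only set side by side.

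**Figure D2:**
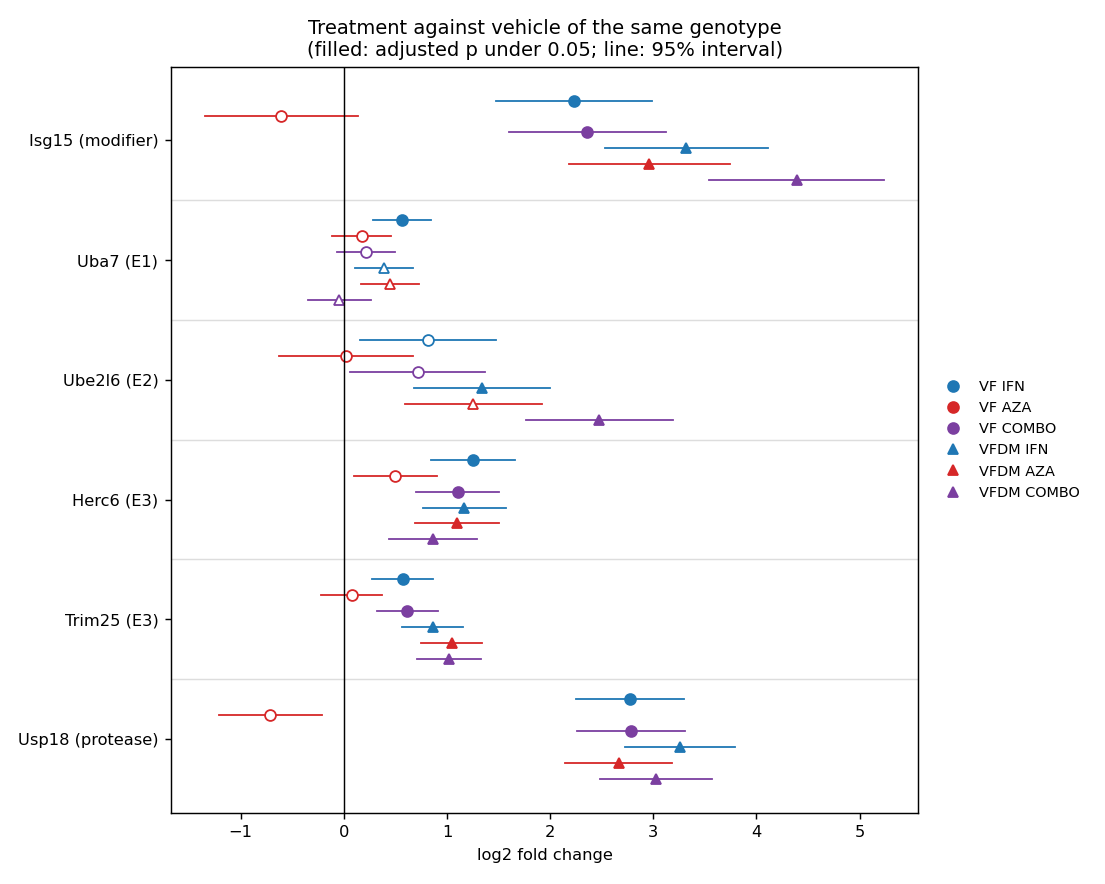
Log2 fold change of each member against vehicle of the same genotype (x axis), with 95% intervals, for IFN, AZA and COMBO in VF (circles) and VFDM (triangles) cells; filled symbols passed the test. The VF AZA symbols are open for all 6 members, while VFDM AZA is filled for 4.

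**Figure D3:**
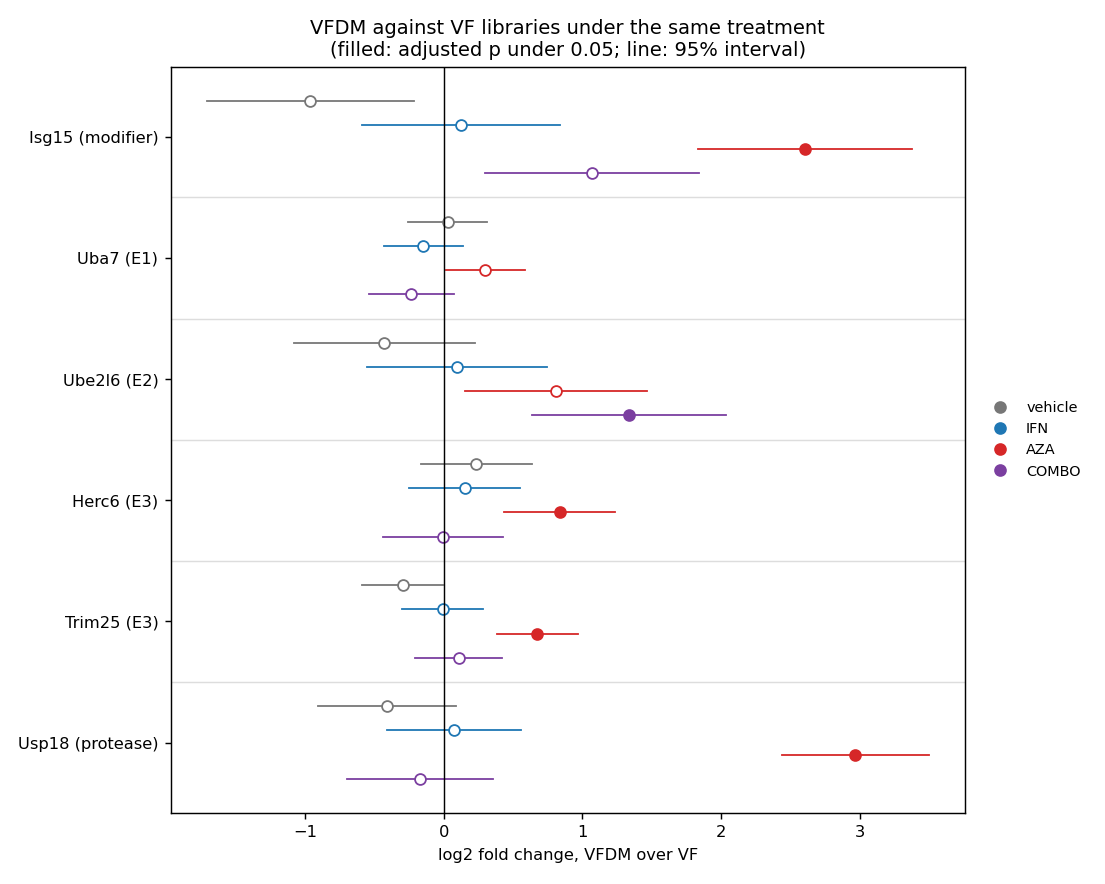
Log2 fold change of VFDM over VF libraries under each treatment (x axis), with 95% intervals; filled symbols passed the test. Under AZA 4 members are filled, under COMBO 1 (Ube2l6), and with vehicle or IFN 0.

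With both drugs, the members that rose in VF cells (Isg15, Herc6, Trim25 and Usp18) were also among those that rose with interferon alone. In VF COMBO 4 of 6 members rose against vehicle, where 8.29% of rows were called and 4.16% higher. Isg15 stood at 28.1, 19.8, 42.5 and 16.2 CPM in VF COMBO libraries 1 to 4, all above vehicle, with a log2 fold change of 2.36 ± 0.37 (adjusted p = 0.000127). Usp18 stood at 65.8, 86.3, 81.5 and 85.8 CPM, with 2.79 ± 0.26 (adjusted p = 5.73e-09). Both groups of values sat in or around the range of VF IFN.

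Herc6, at 100, 159, 170 and 117 CPM, rose by 1.10 ± 0.20 (adjusted p = 0.000577), and Trim25, at 214, 202, 199 and 195 CPM, by 0.62 ± 0.14 (adjusted p = 0.00657) on the log2 scale. Ube2l6 stood at 67.7, 47.7, 73.8 and 67.0 CPM (log2 fold change 0.72, adjusted p = 0.161, and 0.0372 without VF vehicle 4) and Uba7 at 298, 347, 223 and 334 CPM (0.22, adjusted p = 0.345). Each of these had at least 1 library within the vehicle range. Against VF IFN, VF COMBO differed in 0 of 6 members (edgeR, 1 at an unadjusted p under 0.05, 0 by DESeq2 and limma), where 0.00902% of rows were called. The Usp18 difference was 0.01, with a 95% interval from -0.48 to 0.50.

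Against VF AZA, 3 of 6 members were higher in VF COMBO, where 1.85% of rows were called and 1.06% higher. These were Isg15 (log2 difference 2.96 ± 0.38), Usp18 (3.50 ± 0.27) and Trim25 (0.54 ± 0.14, adjusted p = 0.0436). The Trim25 call was lost without any 1 of VF AZA 1, 2 or 4 or VF COMBO 1, 2 or 3, or the library labelled VFDM IFN 3, which the fit uses for the spread (adjusted p between 0.0519 and 0.12), and Herc6 passed without VF COMBO 1 (0.0361). The test of VF COMBO against the sum of both drugs on the log2 scale called 0 of 6 members (edgeR, 3 at an unadjusted p under 0.05, 0 by DESeq2 and limma), where 0.0857% of rows were called. VF COMBO 1 held 23.9 CPM of the T cell gene Cd3e, which was at 0 in VF COMBO 2, 3 and 4. Summed T and NK cell markers stood at 137, 17.4, 20.9 and 20.5 CPM in VF COMBO 1 to 4, against 3.79 to 13.0 CPM in VF vehicle libraries. Of 7 such markers 6 were detected in VF COMBO 1, and 1, 1 and 2 in VF COMBO 2 to 4. The 3 genes called higher of 6 tested may rest on VF COMBO 1. Summed erythroid markers ran from 88.0 to 546 against 24.3 to 247 CPM, with Car1 and Gata1 higher. Platelet markers summed to between 102 and 713 against 154 to 335 CPM, with Pf4 higher (log2 fold change 1.77). Neutrophil markers summed to between 1.39 and 245 against 1.44 to 14.7 CPM, with 0 of 6 genes called (edgeR). Ighm of the B cell list (4.33) and Tcf4 of the plasmacytoid dendritic cell list (0.43) were also higher. Hlf (-1.06) and Flt3 (-1.81) of the stem and progenitor markers were lower, and Ly6a (1.13) and Cd48 (1.80) higher. The part of these lists in the VF COMBO values was not tested. Without the 8 libraries under 20000 detected rows, which leaves 1 VF COMBO library, only 1 member, Usp18, was called against vehicle.

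In VFDM COMBO the modifier and its E2 had their highest group means, and the protease did not. Against vehicle 5 of 6 members rose, where 16.0% of rows were called and 5.52% higher. Isg15 stood at 34.8, 89.9 and 43.1 CPM in VFDM COMBO libraries 2 to 4, each above every VFDM IFN library. Its log2 fold change against vehicle was 4.39 ± 0.42 (adjusted p = 4.4e-09), and 3.90 without VFDM COMBO 3. Ube2l6 stood at 84.7, 315 and 85.7 CPM, with library 3 far above the other 2. Its log2 fold change was 2.48 ± 0.35 (adjusted p = 6.33e-06), and 1.58 without library 3 (adjusted p = 0.000203).

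Usp18 stood at 89.2, 64.0 and 60.0 CPM, within or below the range of VFDM IFN, with a log2 fold change of 3.03 ± 0.27 (adjusted p = 1.62e-09). Trim25, at 220, 247 and 187 CPM, rose by 1.02 ± 0.15 (adjusted p = 1.26e-05), and Herc6, at 138, 166 and 104 CPM, by 0.86 ± 0.21 (adjusted p = 0.00398) on the log2 scale. Uba7, at 263, 306 and 198 CPM, lay across the vehicle range, with a log2 fold change of -0.04 (adjusted p = 0.893).

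Set against each drug alone in VFDM cells, COMBO was higher in Ube2l6, and Isg15 passed the test against AZA. Against IFN 1 of 6 members was called, where 7.88% of rows were called and 1.60% higher. This was Ube2l6, with a log2 difference of 1.14 ± 0.34 (adjusted p = 0.0351). The call was lost without VFDM IFN 1, 2 or 3 (0.0607 to 0.0789), and without VFDM COMBO 3 the difference was 0.27 (adjusted p = 0.696). Isg15 differed from VFDM IFN by 1.07 (adjusted p = 0.0772). It passed with DESeq2 (0.0388), limma (0.0378), the compared groups alone (0.0457) or without VFDM COMBO 2 (0.0415). The difference was 1.04 without the library labelled VFDM IFN 3 (adjusted p = 0.141) and 0.60 without VFDM COMBO 3 (0.455).

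Against AZA 2 members were higher and 1 lower, where 7.82% of rows were called, 1.94% higher and 5.87% lower. Isg15 was higher by 1.43 ± 0.38 (adjusted p = 0.0152) and Ube2l6 by 1.22 ± 0.34 (adjusted p = 0.0235), while Uba7 was lower, at a log2 difference of -0.49 ± 0.15 (adjusted p = 0.0405). Without VFDM COMBO 3 the Isg15 and Ube2l6 differences were 0.95 and 0.33 (adjusted p = 0.19 and 0.601), and Ube2l6 also lost its call without VFDM AZA 1, 2 or 4 (0.0526 to 0.0609). The Uba7 call was lost without any 1 of VFDM AZA 1 to 4 or VFDM COMBO 2 or 4 (0.0877 to 0.3).

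Between genotypes under COMBO 1 of 6 members differed, where 5.11% of rows were called and 1.20% higher. Ube2l6 was higher in VFDM by 1.33 ± 0.34 (adjusted p = 0.0197), and by 0.46 without VFDM COMBO 3 (adjusted p = 0.445). Isg15 differed by 1.07 (adjusted p = 0.0925), or at 0.0277 without VF COMBO 3. The difference of the COMBO responses was called for Isg15 (2.03 ± 0.53, adjusted p = 0.0231) and Ube2l6 (1.76 ± 0.47, adjusted p = 0.0294), where 3.74% of rows were called and 1.25% higher. Neither passed without VFDM COMBO 3 (1.50 and 0.83, adjusted p = 0.126 and 0.236) or without VF vehicle 4 (0.0629 and 0.0876). Isg15 also lost its call without VF vehicle 1 or VFDM vehicle 4 (0.0657 and 0.0537), and Ube2l6 without VF COMBO 1 or 2 or VFDM vehicle 1, 2 or 3 (0.0509 to 0.0695).

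The COMBO response of VFDM cells was smaller than the sum of both drugs' log2 responses in 4 of 6 members, where 2.03% of rows were called and 1.87% lower. For Usp18 the shortfall was -2.90 ± 0.36 (adjusted p = 6.1e-06) and for Herc6 -1.40 ± 0.29 (adjusted p = 0.00471). For Uba7 it was -0.88 ± 0.21 (adjusted p = 0.0138), lost without VFDM vehicle 2, VFDM IFN 1 or VFDM COMBO 4 (0.0535 to 0.098). For Trim25 it was -0.89 ± 0.21 (adjusted p = 0.0174), lost without VFDM vehicle 3 or 4, VFDM IFN 1 or 2, VFDM AZA 4 or VFDM COMBO 2 or 4 (0.0512 to 0.108). The count was 2 without VFDM IFN 1 or VFDM COMBO 4, and 4 without the library labelled VFDM IFN 3. Isg15 was at -1.89 ± 0.53 (adjusted p = 0.0546) and passed without VFDM COMBO 3 (0.0215). Ube2l6 was at -0.12, with a 95% interval from -1.07 to 0.84, and at -0.98 without VFDM COMBO 3 (adjusted p = 0.285).

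VFDM COMBO libraries also carried more RNA of maturing blood cells. Summed erythroid markers ran from 1294 to 14492 CPM against 15.7 to 84.2 CPM in VFDM vehicle libraries, with 6 of 6 genes higher, and neutrophil markers from 505 to 1215 CPM, with 4 of 6 higher. Over all rows 16.0% were called and 5.52% higher. Of the plasmacytoid dendritic cell markers 3 of 5 were higher and 1 lower. Also higher were 2 of 4 B cell, 2 of 6 T and NK cell, 1 of 6 monocyte and 1 of 5 platelet genes tested. Cd48, which the gate selects against, was higher (log2 fold change 1.54, adjusted p = 0.0358), while Flt3 and Cd34 were lower. Summed stem cell markers ran from 1021 to 1193 against 2320 to 2658 CPM, with 6 of 10 genes lower, and Ly6a stood at 15.1 ± 3.21 CPM against 53.0 ± 7.11 CPM in VFDM IFN libraries (54.8 ± 7.58 without the library labelled VFDM IFN 3). The alpha globin gene Hba-a1 stood at 480, 7915 and 1390 CPM in VFDM COMBO 2 to 4 and between 0.368 and 135 CPM in the other 28 libraries. VFDM COMBO 3, the library with the most globin, was also the one with the most Isg15 and Ube2l6. Its Ube2l6 level rests on 5467 counts (Wilson 95% interval 306 to 323 CPM) and its Isg15 level on 1563 counts (85.6 to 94.5 CPM), intervals that cover counting error only. The part of these cells' RNA in the VFDM COMBO values was not tested.

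**Figure D4:**
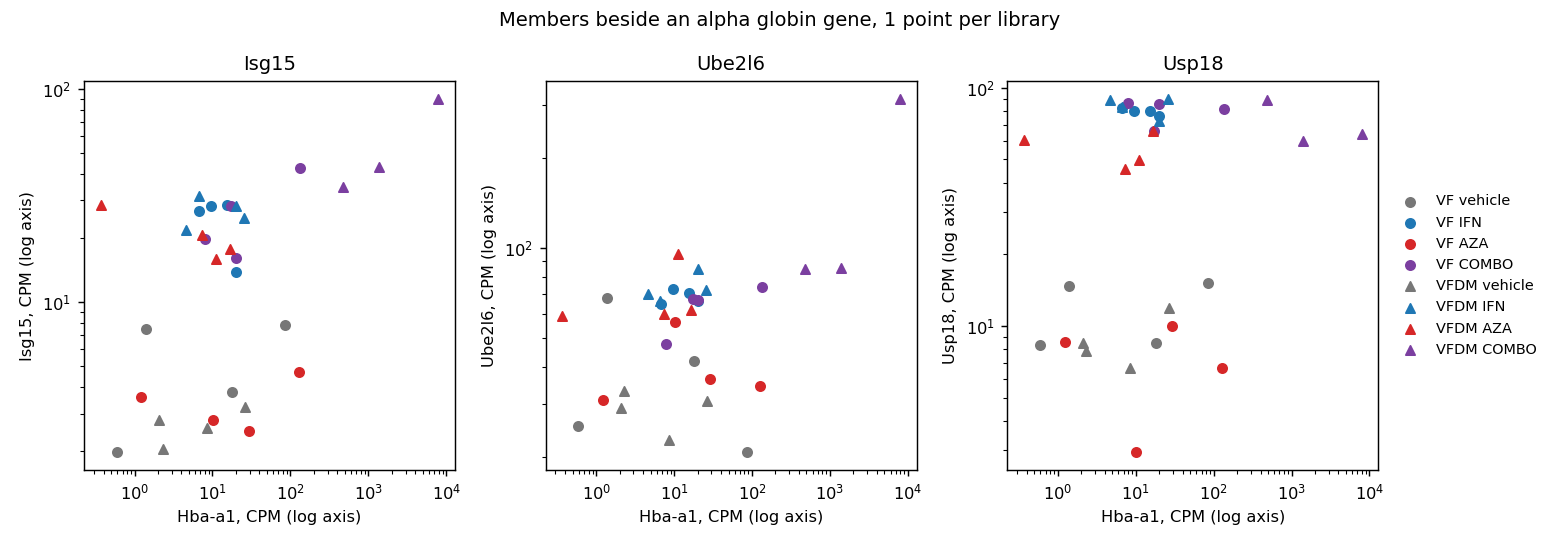
Isg15, Ube2l6 and Usp18 (y axes, CPM, log) beside the alpha globin gene Hba-a1 (x axes, CPM, log), 1 point per library, circles VF and triangles VFDM. The 3 VFDM COMBO libraries lie at 480 CPM of Hba-a1 or more, and the one at 7915 CPM has the highest Isg15 and Ube2l6 but not the highest Usp18.

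Per kilobase of exon, the E1 was the most abundant transcript of the system in 7 of 8 groups and the protease moved from last place. In VF vehicle libraries the levels were 38.7 ± 5.93 CPM per kb for Uba7 (SD, n = 4), 23.0 ± 2.69 for Trim25 and 19.5 ± 10.7 for Ube2l6. Isg15 was at 6.95 ± 3.77, Herc6 at 6.85 ± 2.63 and Usp18 at 4.18 ± 1.36 CPM per kb. The last 3 overlapped each other. In VF IFN libraries Uba7 was at 57.2 ± 7.85 CPM per kb, Ube2l6, Trim25, Isg15 and Usp18 lay between 28.4 and 34.4 on average, and Herc6 was lowest at 16.3 ± 1.26. In VFDM COMBO libraries Ube2l6 (81.0 ± 66.4 CPM per kb, n = 3) and Isg15 (74.0 ± 39.3) stood above Uba7 (38.2 ± 8.13).

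Across groups, Isg15 and Usp18 had 2 levels with a gap between them. In descending order of mean CPM, Isg15 was highest in VFDM COMBO, then VF COMBO, VFDM IFN, VF IFN and VFDM AZA, and lower in VF vehicle, VF AZA and VFDM vehicle. Neighbours overlapped except at the step from VFDM AZA to VF vehicle. For Usp18 the order was VFDM IFN, VF COMBO, VF IFN, VFDM COMBO, VFDM AZA, VF vehicle, VFDM vehicle and VF AZA, with the same single gap. Uba7 and Herc6 had no step without overlap, Ube2l6 had 1 between VFDM COMBO and VFDM IFN, whose nearest libraries were both at 84.7 CPM, and Trim25 had 1 between VF vehicle and VFDM vehicle.

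The ratio of modifier to protease overlapped between all VF groups, and between all VFDM groups except vehicle and COMBO. The log2 ratio of Isg15 to Usp18 CPM averaged -1.70 ± 0.26 (SD, n = 4) in VFDM vehicle, -1.66 ± 0.34 in VFDM IFN (-1.59 ± 0.38 without library 3) and -1.44 ± 0.39 in VFDM AZA libraries. In VFDM COMBO it averaged -0.45 ± 0.92 (n = 3) and ran from -1.36 to 0.49. In VF cells it averaged -1.29 ± 0.53, -1.76 ± 0.46, -0.95 ± 0.85 and -1.68 ± 0.70 with vehicle, IFN, AZA and COMBO.

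None of 46 tested genes that do the same jobs for ubiquitin and other modifiers passed the test under IFN. In detail, 0 of 13 other modifiers, 0 of 8 other E1 enzymes, 0 of 13 other E2 enzymes, 0 of 5 other ligases (4 HERC proteins and Arih1) and 0 of 7 other ubiquitin-specific proteases passed in either genotype (edgeR), with 11 in VF and 2 in VFDM cells at an unadjusted p under 0.05. Over all 22172 rows 2.43% and 0.965% were called, and 2746 and 1360 rows were at an unadjusted p under 0.05, so a count of 0 among 46 is near the background. The VFDM count was also 0 without the library labelled VFDM IFN 3 (edgeR, 2 at an unadjusted p under 0.05). These 2, named after their values were seen, were the ubiquitin-like modifier Ubd and Usp25. Ubd had a log2 fold change of 7.67 ± 1.88 there (adjusted p = 0.054), and Usp25 of 0.35 ± 0.15 (adjusted p = 0.623). Over all libraries the medians of these lists lay between -0.18 and 0.27 in VF and between 0.03 and 0.19 on the log2 scale in VFDM cells. The same lists had 0 called under AZA in either genotype (edgeR), with 11 and 6 at an unadjusted p under 0.05, where 1.20% and 0.925% of all rows were called. Ube2l3, the closest relative of Ube2l6 and an E2 for ubiquitin, stood at 45.0 CPM in VF vehicle and 53.4 CPM in VF IFN libraries on average (log2 fold change 0.25, adjusted p = 0.717). Uba1, the main ubiquitin E1, changed by 0.03 (adjusted p = 0.988) and the ubiquitin gene Ubb by 0.03 (adjusted p = 0.99) there, neither passing. In VF COMBO 4 of the 7 other proteases were higher, Usp7, Usp14, Usp16 and Usp25, named after their values were seen, with log2 fold changes from 0.36 to 0.80, where 8.29% of all rows were called and 4.16% higher. Uba3 and Herc1 were also higher there (0.66 and 0.52) and Fau was lower (-0.70).

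Among the partners of Usp18 at the interferon receptor, Stat2 and Irf9 rose under IFN in each genotype and in VFDM AZA. Stat2, which bridges Usp18 to the receptor, rose by 1.09 ± 0.17 in VF IFN (adjusted p = 0.000109), by 1.39 ± 0.17 in VFDM IFN (2.25e-06, and by 1.51 without the library labelled VFDM IFN 3) and by 1.32 ± 0.17 in VFDM AZA (8.22e-06), and was at -0.11 in VF AZA (0.852). Irf9 rose by 0.97 ± 0.18 in VF IFN (adjusted p = 0.000672) and was at -0.29 in VF AZA (0.493). In VFDM cells it averaged 143 CPM under AZA and 71.1 CPM in vehicle libraries (adjusted p = 0.00081). The receptor chains Ifnar1 and Ifnar2 did not pass in any treatment, with log2 fold changes between -0.59 and 0.29.

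Of 6 partners of Trim25 in RNA sensing, the RNA sensor Ddx58 (RIG-I) and the antiviral protein Zc3hav1 rose under IFN in both genotypes and in VFDM AZA. Ddx58 rose by 1.21 ± 0.14 in VF IFN, by 1.10 ± 0.14 in VFDM IFN (1.11 without the library labelled VFDM IFN 3) and by 1.11 ± 0.14 in VFDM AZA, against -0.13 in VF AZA (adjusted p = 0.739). Khnyn was lower in VF IFN (-0.57 ± 0.16, adjusted p = 0.0466). Of 14 other TRIM proteins 5 rose under IFN in each genotype, 4 in VFDM cells without the library labelled VFDM IFN 3, where 1.27% (VF) and 0.916% (VFDM) of all rows were called higher. Of the 14, 3 rose in VFDM AZA, where 0.852% of rows were called higher, and 0 passed in VF AZA (edgeR, 1 at an unadjusted p under 0.05), where 1.20% were called. Trim30a, for example, rose by 1.14 ± 0.16 in VF IFN and by 0.71 ± 0.15 in VFDM AZA (adjusted p = 0.0113). Itgal, a chain of the receptor LFA-1 through which free ISG15 acts on lymphocytes, rose by 2.00 ± 0.40 in VFDM IFN (adjusted p = 0.00379, and by 2.08 without the library labelled VFDM IFN 3) and by 2.03 ± 0.40 in VFDM AZA (0.00357), and was at 0.07 in VF IFN (0.99). It averaged 3.82 CPM in VFDM vehicle, 15.3 CPM in VFDM IFN and 15.6 CPM in VFDM AZA libraries, beside 14.2 CPM in VF vehicle libraries. It also rose by 1.75 ± 0.39 in VF COMBO (adjusted p = 0.00446) and averaged 70.3 CPM in VFDM COMBO (adjusted p = 3.24e-08 against vehicle).

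**Figure D5:**
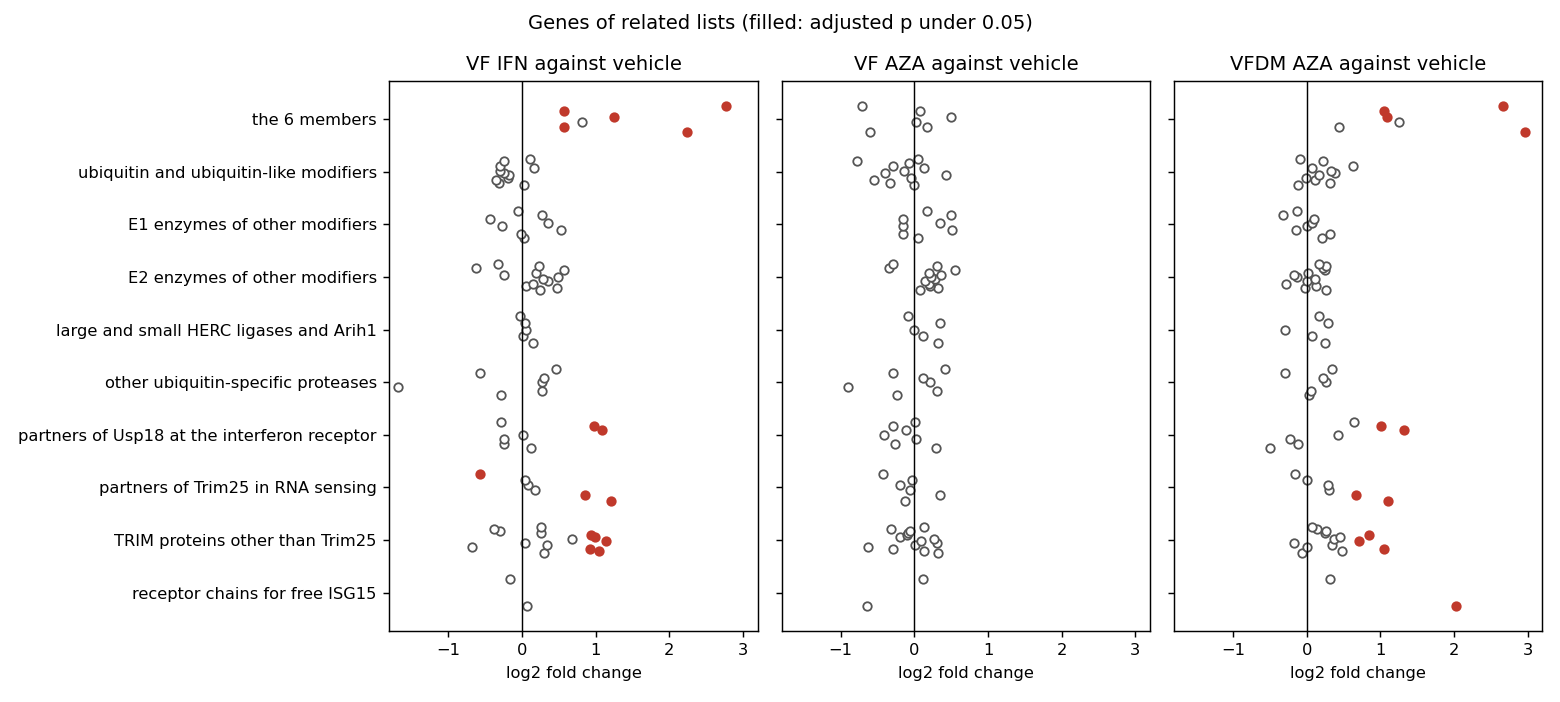
Log2 fold change (x axis) of genes in the 6 members and 9 related lists (rows), in VF IFN, VF AZA and VFDM AZA against vehicle; filled points passed the test. VFDM AZA has filled points in the members and in the rows of Usp18 partners, Trim25 partners, TRIM proteins and ISG15 receptor chains.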

How the data were processed

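RNA of sorted LT-HSCs was measured in 31 libraries (Takara SMART-Seq Stranded kit after PicoPure extraction, per the labels' protocols). The authors deposited raw read counts per gene. Tools listed in the submitters' processing notes are STAR 2.7.10a, featureCounts, FastQC 0.11.5 and R 4.3.0, with the build mm10. The sources used here give neither the annotation nor the strand setting. Uba7, Herc6 and Usp18, which overlap predicted genes, may therefore share reads with them. Symbols, positions and exon lengths came from GENCODE vM21.

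Tests were run in edgeR 4.0.16 (R 4.3.3), using TMM factors, filterByExpr (count minimum 10, total 15; 22172 rows) and a robust quasi-likelihood fit of 1 mean per group over all 31 libraries. Tests were two-sided, and p-values were Benjamini-Hochberg adjusted over all tested rows, with a threshold of 0.05. The model was tested on simulated data. CPM are per TMM-scaled library, and 3 counts, the limit that a count of 0 allows, come to at most 0.174 CPM. The 19 comparisons were treatments against vehicle, genotypes, COMBO against each drug, and interaction terms, and 1 more was added after levels were seen. Alternatives were RLE factors, no filter, DESeq2 1.42.0, limma 3.58.1 voom, a replicate block, the compared groups alone and leaving libraries out. Members and lists were chosen with earlier results of these data known. Genes named beyond the members were those of each list past the IFN test, at most 4 by smallest p, a few fixed ones (Ube2l3, Uba1, Ubb, Ifnar1, Ifnar2, Stat2), and the 3 genes most like each member. Some genes of these lists are not reported here.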

Additional observations from a re-analysis of the deposited data

Results flagged for a closer look

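3 of the 42 groups of 4 libraries looked at had 1 library far from the other 3, a gap that chance gives in about 1 group in 20. Isg15 in VF IFN 1 was at 13.9 CPM where the others lay between 26.8 and 28.6 CPM. Ube2l6 in VFDM AZA 3 was at 95.4 CPM where the others lay between 59.4 and 61.9 CPM. Herc6 in VF IFN 4 was at 169 CPM where the others lay between 144 and 147 CPM.

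The AZA response differed between VFDM and VF cells by the test of the difference itself for Isg15 (3.56 on the log2 scale), Usp18 (3.38) and Trim25 (0.97). The COMBO response differed for Isg15 (2.03) and Ube2l6 (1.76), and neither of these passed without VFDM COMBO 3.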

How the results depend on the processing

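Of 120 gene results (6 members in 20 comparisons) 44 passed the test, and 25 of these passed under every alternative run for them. None of the 44 reversed, and 25 of the 76 that did not pass changed sign in some alternative. Little sign of pairing by replicate number was seen. Over 105 same-numbered pairs of libraries from different groups the correlation of deviations had a median of -0.000777. It exceeded 0.1 in 6 pairs, with a highest value of 0.173, so a batch shared by some libraries is not excluded. With the replicate block the count of members past the test was 0 in place of 1 for VFDM against VF under COMBO and for VFDM COMBO against IFN, 1 in place of 3 for VFDM COMBO against AZA, and 1 in place of 2 for the difference of the COMBO responses. Without a filter on low counts the last 3 gave 0, 1 and 1. On the compared groups alone the counts were 1 in place of 4 for VF COMBO against vehicle, 0 for VFDM against VF under COMBO, 1 for VFDM COMBO against AZA and 0 for the difference of the COMBO responses. Without libraries under 20000 detected rows these 4 were 1, 0, 1 and 1, with the lone VF COMBO library assumed to vary like the other groups. With limma VFDM against VF under COMBO gave 0, the difference of the COMBO responses 0, and VFDM COMBO against IFN 2, as did DESeq2. Without VF vehicle 1 and 4 the difference of the COMBO responses gave 0. The cause of these shifts was not tested.

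Leaving out 1 library at a time, the counts ran from 3 to 6 for VF IFN, 0 to 1 for VF AZA, 4 to 5 for VF COMBO, 4 to 5 for VFDM IFN and for VFDM AZA, and stayed at 5 for VFDM COMBO. They ran from 0 to 1 for the genotypes with vehicle, 2 to 4 under AZA and 0 to 2 under COMBO, from 2 to 3 for VF COMBO against AZA, 0 to 2 for VFDM COMBO against IFN and 1 to 3 against AZA. They ran from 2 to 3 for the difference of the AZA responses, 0 to 2 for that of the COMBO responses and 2 to 5 for VFDM COMBO against the sum of both drugs. Ranked by CPM in place of CPM per kilobase, 4 of the 6 members changed places in VF vehicle libraries. Isg15 rested on 64 to 2007 counts a library, so counting error was small beside the spread between libraries.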

Other observations

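The genes whose pattern over the 8 group means was most like each member's were found among 10484 candidates by the root mean square difference of centred log2 CPM, as a description over 8 groups. Nearest to Usp18 were Oasl1 (0.234), Ifit1 (0.305) and Irf7 (0.321), and nearest to Herc6 were Eif2ak2 (0.0713), Slfn8 (0.119) and Gvin1 (0.138). Oasl1, Ifit1, Irf7 and Eif2ak2 are known interferon-stimulated genes. Nearest to Trim25 were Lgals9 (0.0965), Mthfd2 (0.112) and Ddx24 (0.135), and nearest to Uba7 were Itga5 (0.0738), Hipk2 (0.0884) and St6galnac4 (0.0938). Nearest to Ube2l6 were Zeb2 (0.186), Narf (0.221) and Blm (0.222). Nearest to Isg15 were Mfsd2b (0.176), Samd14 (0.279) and Oasl1 (0.280), of which Mfsd2b is a lipid transporter of red cells and platelets. Among the members Herc6 and Trim25 were closest (0.248), Isg15 and Usp18 were 0.428 apart, and Isg15 and Uba7 were farthest apart (1.44).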
